A study of Homo sapiens with 19 samples.

Results

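The modal-ploid and the hyper-ploid subline of 4175, a strongly lung-metastatic derivative of the human breast cancer line MDA-MB-231, were set against the weakly lung-metastatic lines SCP21, SCP6 and SCP26. The comparison held 2 subline arrays and 3 weak-line arrays, 5 of the 19 arrays of the series, chosen by their titles and by no measured value. The series profiled messenger RNA of 19 lines of MDA-MB-231 descent by array, 1 array for each line, to study ploidy doubling in metastasis. The question addressed here is which features of the strong lung lines were still present after 4175 had been separated into sublines cultured apart at each ploidy.

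All lines used here carry the MDA-MB-231 background, and the labels name no added agent or engineered allele. The 4 strongly lung-metastatic lines 4142, 4173, 4175 and 4180 are given beside the sublines as a second point of comparison, and 4175 is there as the original subline after short culture. Each subline is 1 culture of 1 parent line, so the pair speaks for 4175 and for no other strong line. The arrays of the strong and of the weak group are different cell lines, but both subline arrays come from 4175. The p-values therefore rest on an error that pools the spread between lines with the spread between the sublines. They hold no measure of how sublines of different lines would vary. A level averages over all cells of a culture, so fewer expressing cells and less RNA per cell cannot be told apart.

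Cells that leave a breast tumour and grow in the lung must cross vessel walls, remodel the matrix and survive signals from the new tissue. Work on MDA-MB-231 derivatives has described sets of genes that mark lung-seeking lines, among them matrix metalloproteinases, matrix proteins such as SPARC and tenascin C, the EGF receptor ligand epiregulin and the prostaglandin synthase PTGS2. MHC class II molecules present peptides to helper T cells, and tumour cells can also make them under interferon or through the transactivator CIITA.

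Levels below are array signals recovered from the deposited ratios and scaled to 1 common median, in arbitrary units. The 40th percentile of an array lay between 66.4 and 88.1 on this scale and served as the limit below which a level was treated as dim. Of 9 breast cancer line markers, 8 rose above that limit on at least 1 of the 9 lung-set arrays, and PGR, the progesterone receptor, did not. The recovered signals had trimmed means of 499.387 to 499.464 on all 7 strong and weak lines, and of 323 to 346 on the sublines. The 7 lines thus shared 1 signal scale that the sublines did not, before the median scaling used here. How this difference arose was not tested. Spike-in controls averaged 9.25 to 9.46 on the log2 scale in the sublines, 10.2 to 10.7 in strong lines and 9.89 to 10.4 in weak lines. Array handling and subline status therefore cannot be told apart. After scaling the spike-ins averaged 9.77 to 10.0 in the sublines, 9.92 to 10.6 in strong lines and 9.86 to 10.2 in weak lines. SCP6 stood apart. Its log2 differences to the other 8 arrays had an SD of 1.02 to 1.16 over all genes, while SCP21 and SCP26 differed from each other by an SD of 0.70.

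The sublines differed from the weak lines in a large set of genes. Of 8963 genes tested with limma, 425 (4.74%) passed an adjusted p of 0.05 (2071, 23.1%, had an unadjusted p under 0.05), with 224 higher (2.5%) and 201 lower (2.24%) in the sublines. The shares of 2.5% higher and 2.24% lower stand beside each count of called list members below. Of the higher genes, 207 were over 2-fold and 76 over 4-fold, and of the lower genes 177 were over 2-fold and 55 over 4-fold. All 3 weak lines were dim for 50 of the higher genes, and both sublines were dim for 62 of the lower genes. The levels of the modal-ploid and hyper-ploid sublines lay within 2-fold of each other for 205 of the 224 higher and 180 of the 201 lower genes. Over all genes, 6.83% differed by more than 2-fold between these 2 arrays. A gene passes more easily when the 2 sublines lie close. Closeness among called genes is therefore partly built in and is no separate result. Without SCP6 the counts were 733 higher and 440 lower. Without the modal-ploid subline they were 28 higher and 59 lower, and without the hyper-ploid subline 45 higher and 64 lower, since the remaining subline then stands alone.

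The sublines resembled each other more than any line, and each was less distant from every strong line than from any weak line. The SD of log2 differences over all genes was 0.57 between the sublines and 0.78 to 0.84 between a subline and a strong line. Against the original 4175 array it was 0.79 for the modal-ploid and 0.80 for the hyper-ploid subline. Between a subline and a weak line it was 0.94 to 1.10. The 4 strong lines differed among themselves by an SD of 0.46 to 0.57.

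Many of the published lung metastasis genes were held at high level in both sublines. Of 16 such genes tested, 9 rose against the weak lines, none fell, and the other 7 did not pass. The count was 2 higher without the modal-ploid subline and 4 higher without the hyper-ploid subline. The list's median log2 difference was 2.93, against 0.06 over all 8963 genes, and 2.10 with the 7 genes whose dimmer group was dim on all its arrays put at their bound (0.05 over all genes). In 13 of the 16 both sublines lay above all 3 weak lines, a pattern found in 19.3% of all genes. The list comes from earlier work on derivatives of the same parental line, including 4175, so it is no independent evidence of direction.

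**Figure D1:**
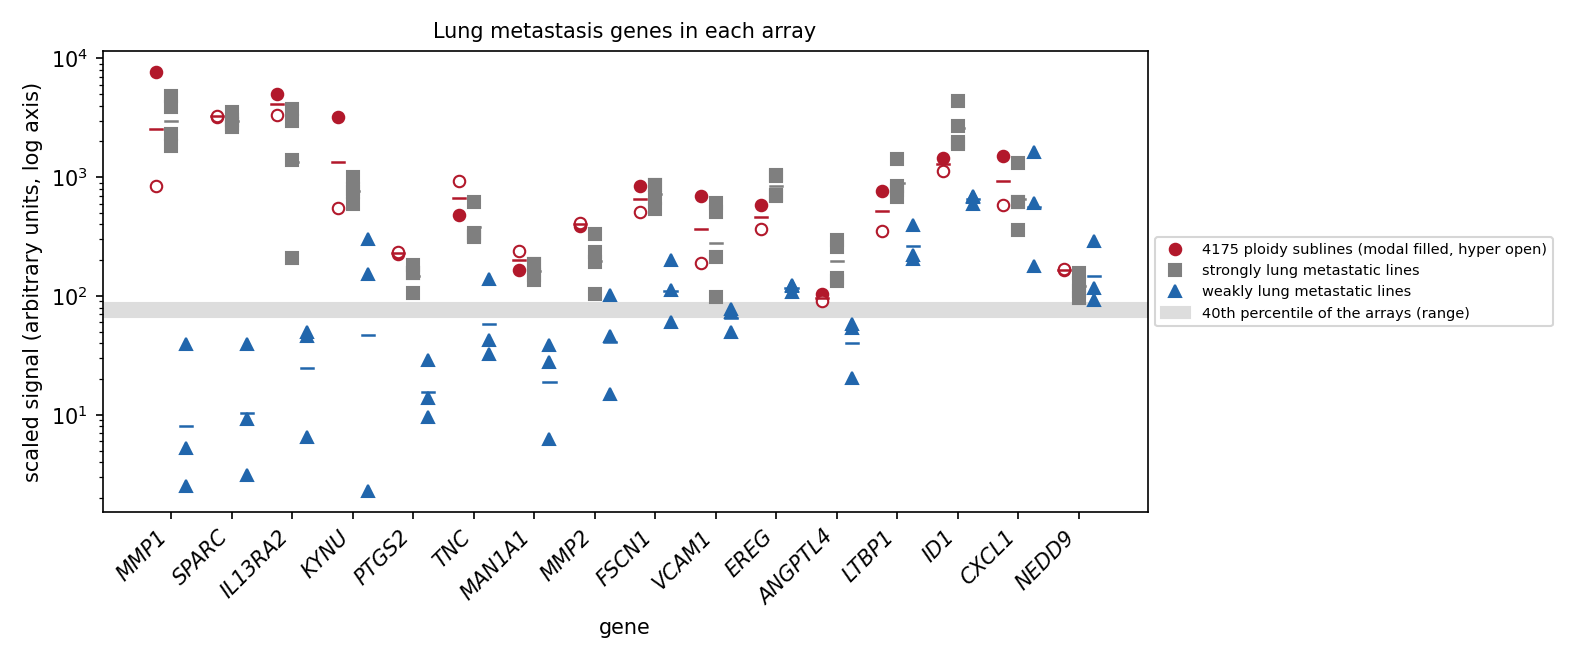
Scaled signal (arbitrary units, log axis) of the 16 lung metastasis genes, in order of their log2 difference between sublines and weak lines. Red circles are the 4175 sublines (filled modal-ploid, open hyper-ploid), grey squares the 4 strong lines, blue triangles the 3 weak lines, short bars the means of log2 levels, and the grey band the range of the arrays' 40th percentiles; both sublines lie above all weak lines for 13 genes.

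MMP1, the interstitial collagenase, had levels of 7698 (modal-ploid) and 839 (hyper-ploid) in the sublines, against 2.52, 5.24 and 39.7 in the weak lines. All 3 weak lines were dim, so it was at least 32.3-fold higher in the sublines (limma adjusted p = 0.00824). SPARC, a secreted matrix glycoprotein, reached 3237 and 3302 in the sublines, against 9.13, 3.10 and 39.6 in the weak lines. The SPARC sublines lay within the range of the strong lines, 2674 to 3511, and at least 41.5-fold above the weak lines (adjusted p = 0.00204). IL13RA2, the decoy receptor for interleukin 13, had levels of 5006 and 3363 in the sublines, against 49.8, 6.52 and 45.7 in the weak lines. The gain was at least 52.1-fold (adjusted p = 0.0146). For IL13RA2 the strong lines themselves ran from 211 in 4142 to 3761 in 4175. The hyper-ploid subline sat at the upper end of that range and the modal-ploid subline above it. MMP1 lost its call without the modal-ploid subline (adjusted p = 0.0647), IL13RA2 without the modal-ploid (0.101) or the hyper-ploid subline (0.0822), and SPARC kept its call under each omission.

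PTGS2, the inducible prostaglandin synthase, had nearly equal levels of 226 and 235 in the sublines, against 28.8, 13.9 and 9.58 in the weak lines, at least 2.93-fold higher (adjusted p = 0.00313). TNC, which encodes tenascin C, a matrix protein of metastatic niches, had levels of 482 and 924 in the sublines, against 32.8, 42.2 and 139 in the weak lines. Its log2 difference was 3.53 (SE 0.60, adjusted p = 0.0153). MMP2, a gelatinase, stood at 390 and 415 in the sublines, against 15.1, 46.3 and 101 in the weak lines, with a log2 difference of 3.29 (adjusted p = 0.0371). No subline overlapped a weak line for these 3 genes, which was so for all 224 higher and 201 lower genes that passed and for 35.5% of all genes. FSCN1, which encodes the actin bundler fascin, had levels of 848 and 511 in the sublines, against 60.4, 201 and 112 in the weak lines (log2 difference 2.57, adjusted p = 0.0208). MAN1A1, a Golgi mannosidase that trims N-glycans, had levels of 166 and 240 in the sublines, against 27.7, 6.20 and 38.9 in the weak lines, at least 2.54-fold higher (adjusted p = 0.0233). Without the modal-ploid or without the hyper-ploid subline the adjusted p was 0.0592 and 0.114 for TNC, 0.159 and 0.169 for MMP2, 0.14 and 0.0683 for FSCN1, and 0.101 and 0.143 for MAN1A1. MMP2 also lost its call under quantile normalization (0.0542) and with 18 arrays (0.06), and MAN1A1 with the mean of all kept probe sets (0.08).

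Epiregulin, encoded by EREG, had levels of 587 and 368 in the sublines, 693 to 1044 in the strong lines, and 122, 123 and 108 in the weak lines. It was 3.96-fold higher than in the weak lines (adjusted p = 0.00824; 0.0668 without the modal-ploid subline), and the sublines lay below all 4 strong lines, a difference of -0.87 on the log2 scale that did not pass (adjusted p = 0.108). KYNU, which encodes the tryptophan-pathway enzyme kynureninase, had levels of 3241 (modal-ploid) and 549 (hyper-ploid) in the sublines, against 2.26, 304 and 154 in the weak lines, and did not pass (adjusted p = 0.144). ANGPTL4, a secreted protein that loosens endothelial contacts, had levels of 103 and 90.5 in the sublines, 134 to 296 in the strong lines, and 58.2, 54.0 and 20.3 in the weak lines. Its difference of 1.27 from the weak lines did not pass (adjusted p = 0.176).

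The targets attributed to miR-335, a microRNA reported to be lost in lung- and bone-seeking derivatives of MDA-MB-231, overlapped this set in TNC. The mature strand is shown because its seed, bases 2 to 8 in capitals, is the part that pairs with targets. The sequence is from RefSeq (GRCh38.p14, chr7:130496126-130496148, plus strand), and the microRNA itself was not measured here.
hsa-miR-335-5p: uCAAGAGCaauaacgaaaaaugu

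Of 6 such targets tested, 4 rose and none fell, and their median log2 difference was 4.17, or 3.24 with 4 genes at their bound. Of the 6 differences 5 were positive and 1, that of MERTK, was negative and did not pass. This list, too, came from work on 4175 and its relatives. SOX4, a transcription factor of progenitor cells, had levels of 1047 and 517 in the sublines, against 7.74, 5.88 and 28.2 in the weak lines, at least 9.34-fold higher (adjusted p = 0.00396). COL1A1, a chain of type I collagen, had levels of 1561 and 800 in the sublines, against 25.1, 61.4 and 41.7 in the weak lines, at least 14.2-fold higher (adjusted p = 0.00204). PLCB1, a phospholipase C downstream of G proteins, had levels of 506 and 270 in the sublines, against 24.0, 23.9 and 54.97 in the weak lines, at least 4.69-fold higher (adjusted p = 0.00357). SOX4, COL1A1 and PLCB1 kept their calls under each omission of 1 array, while TNC lost its call without either subline, as given above. PTPRN2, a receptor-type phosphatase family member, had levels of 778 and 722 in the sublines, against 9.83, 5.45 and 7.50 in the weak lines, and did not pass (adjusted p = 0.0588). The strong line 4142 had a PTPRN2 level of 13.6 while the other 3 had 1014 to 1337.

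Beyond these lists, the 12 largest rises held matrix, adhesion and cytokine genes. ROBO1, the receptor for SLIT guidance cues, had levels of 225 and 273 in the sublines, 127 to 200 in the strong lines, and 1.39, 1.28 and 5.997 in the weak lines. It was at least 3.15-fold higher than in the weak lines (adjusted p = 0.00204). FKBP10, a chaperone and prolyl isomerase of collagen, had levels of 460 and 386 in the sublines, 101 to 167 in the strong lines, and 17.3, 13.3 and 9.08 in the weak lines. It was at least 5.35-fold above the weak lines (adjusted p = 0.000395) and also above the strong lines, by 1.81 on the log2 scale (adjusted p = 0.0225). CADM1, a cell adhesion molecule, had levels of 2532 and 955 in the sublines, 55.5 to 309 in the strong lines, and 10.0, 24.1 and 71.5 in the weak lines. The gain over the weak lines was at least 19.7-fold (adjusted p = 0.0110). CADM1 exceeded every strong line in both sublines, but that difference, 3.24 on the log2 scale, did not pass (adjusted p = 0.0773). CSF3, which encodes the granulocyte colony-stimulating factor, had levels of 1269 and 851 in the sublines, 178 to 718 in the strong lines, and 10.1, 49.3 and 15.3 in the weak lines, at least 13.2-fold above the weak lines (adjusted p = 0.00805). Without the modal-ploid subline the adjusted p was 0.089 for CADM1 and 0.0667 for CSF3, and ROBO1 and FKBP10 kept their calls under each omission.

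Of 26 collagens and other matrix proteins, 7 rose and none fell, with a median of 0.83. Apart from SPARC and COL1A1, these were COL7A1, LAMA4, THBS1, COL6A1 and FBLN1. THBS1, which encodes the matrix protein thrombospondin 1, had levels of 2524 and 4288 in the sublines, 761 to 1524 in the strong lines, and 418, 614 and 944 in the weak lines. The THBS1 difference from the weak lines was 2.40 (SE 0.41, adjusted p = 0.0162). COL6A1, a chain of type VI collagen, had levels of 4510 and 3765 in the sublines, against 628, 1142 and 1773 in the weak lines (log2 difference 1.93, adjusted p = 0.0426). FBLN1, which encodes the elastic fibre protein fibulin 1, had levels of 430 and 419 in the sublines, 127 to 223 in the strong lines, and 140, 156 and 103 in the weak lines. FBLN1 passed against both the weak lines (1.70, adjusted p = 0.0149) and the strong lines (1.41, adjusted p = 0.0357). Without SCP6 the count for this list was 12 higher and 1 lower, and without either subline it was 2 higher. Left without the modal-ploid or the hyper-ploid subline, the adjusted p was 0.0538 and 0.118 for THBS1, 0.207 and 0.159 for COL6A1, and 0.0972 and 0.0885 for FBLN1. COL6A1 also lost its call without SCP21 (0.0696), COL7A1 without the modal-ploid subline (0.206), the hyper-ploid subline (0.174) or SCP21 (0.0719), and LAMA4 without the modal-ploid (0.0538) or the hyper-ploid subline (0.136). With the mean of all kept probe sets COL7A1 (0.0503), LAMA4 (1.13, 0.129) and THBS1 (0.0532) did not pass.

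Among 24 matrix proteases and inhibitors, 4 rose and none fell: MMP1, MMP2, ADAMTS1 and SERPINE2. SERPINE2, an inhibitor of thrombin and plasminogen activators, had levels of 2247 and 1742 in the sublines, 1910 to 2505 in the strong lines, and 219, 504 and 297 in the weak lines (2.63, adjusted p = 0.00524; 0.0507 without the modal-ploid subline). ADAMTS1, an aggrecan-cleaving protease, had levels of 273 and 116 in the sublines, against 18.01, 5.56 and 37.6 in the weak lines, at least 2.26-fold higher (adjusted p = 0.0342). It lost its call without the modal-ploid subline (0.205), the hyper-ploid subline (0.0925) or SCP21 (0.0627). The list's median, 0.03, did not stand away from that of all genes and changed sign under quantile normalization (-0.09). The count for this list was 0 without the modal-ploid and 2 higher without the hyper-ploid subline.

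No integrin or marker of the mesenchymal state passed, neither among 9 integrins nor among 11 mesenchymal markers and EMT factors. VIM, which encodes vimentin, had levels of 22260 and 20190 in the sublines, against 18440, 12980 and 10310 in the weak lines (0.65, adjusted p = 0.192). AXL, a receptor kinase often high in mesenchymal breast lines, had levels of 10820 and 8547 in the sublines, against 6499, 6149 and 4460 in the weak lines (0.77, adjusted p = 0.136). Of 18 epithelial junction and keratin genes, 2 fell. CLDN4, a tight junction claudin, had levels of 74.4 (modal-ploid) and 12.4 (hyper-ploid) in the sublines, against 300.1, 617 and 543 in the weak lines (-3.94, adjusted p = 0.0125). KRT19, a keratin of simple epithelia, had levels of 746 and 250 in the sublines, 1489 to 2351 in the strong lines, and 1343, 2062 and 1642 in the weak lines. KRT19 passed against the weak lines (-1.94, adjusted p = 0.0370) and against the strong lines (-2.10, adjusted p = 0.0357). CLDN4 kept its call under each omission, whereas KRT19 lost it without the hyper-ploid subline (0.169), SCP21 (0.0554) or SCP26 (0.0731).

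Among the 21 lists, antigen presentation held the most falls. Of 20 MHC class I and II genes tested, 6 fell and none rose, namely HLA-DPA1, HLA-DRB1, HLA-DRA, HLA-DPB1, CD74 and PSMB9. The median was -1.09, and in 14 of the 20 both sublines lay below all 3 weak lines, a pattern found in 16.2% of all genes. The lists were chosen with earlier results of these data known, so neither share nor rank is independent evidence. Under quantile normalization 12 of the 20 fell. Without SCP21 the count was 10 lower, and without either subline it was 2 lower.

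The promoters of class II genes and of the invariant chain gene CD74 are known to share boxes bound by a complex that recruits CIITA. The stretches below are shown because these genes moved together, and each runs 140 to 31 bases before the gene's start in RefSeq (GRCh38.p14). Capitals mark CCAAT, searched on both strands so that it also reads ATTGG, and ACTGATGA, searched on both strands, which is the core of the X box in some of these genes. The motifs were chosen with the sequences in view. Of the 21 listed genes, 17 had an entry. For HLA-DPA1, with 2 listed starts, the second was taken. HLA-DMA did not pass and is shown for comparison.
HLA-DRB1, chr6:32589879-32589988, minus strand: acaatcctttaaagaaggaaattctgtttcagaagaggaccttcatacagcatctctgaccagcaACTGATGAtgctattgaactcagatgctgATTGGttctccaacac
HLA-DPA1, chr6:33073680-33073789, minus strand: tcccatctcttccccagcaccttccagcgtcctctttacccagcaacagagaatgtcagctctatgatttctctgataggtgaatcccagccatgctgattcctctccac
HLA-DPB1, chr6:33075850-33075959, plus strand: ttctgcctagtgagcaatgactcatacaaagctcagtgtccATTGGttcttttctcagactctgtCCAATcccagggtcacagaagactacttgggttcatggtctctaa
CD74, chr5:150412941-150413050, minus strand: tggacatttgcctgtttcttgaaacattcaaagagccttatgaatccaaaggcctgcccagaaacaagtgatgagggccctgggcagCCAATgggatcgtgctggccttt
HLA-DMA, chr6:32953128-32953237, minus strand: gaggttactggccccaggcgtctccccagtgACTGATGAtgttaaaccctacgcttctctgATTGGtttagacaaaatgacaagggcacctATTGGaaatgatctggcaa

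CCAAT was found in the same stretch of 19.95% of 35116 promoters and ACTGATGA in 0.285%. HLA-DRB1 and HLA-DMA hold both motifs in this window, HLA-DPB1 and CD74 hold CCAAT alone, and the HLA-DPA1 window holds neither. These matches are descriptions of the letters and not of binding.

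HLA-DPA1, the alpha chain of the DP heterodimer, had dim levels of 69.2 and 50.2 in the sublines, 188 to 433 in the strong lines, and 801, 3145 and 3603 in the weak lines. It was at least 28.0-fold lower than in the weak lines (adjusted p = 0.00432). HLA-DPB1, its beta chain, had dim levels of 52.5 and 39.1 in the sublines, 53.4 to 187 in the strong lines, and 394, 1206 and 1618 in the weak lines, at least 12.3-fold lower (adjusted p = 0.0118). Both chains of DP thus lay below the limit in both sublines. HLA-DRA, the alpha chain of DR, had levels of 89.4 and 70.5 in the sublines, 376 to 879 in the strong lines, and 594, 3530 and 2232 in the weak lines (-4.40, SE 0.67, adjusted p = 0.0110). Against the strong lines the HLA-DRA difference was -2.90 and did not pass (adjusted p = 0.0514). HLA-DRB1, the DR beta chain, had levels of 167 and 130 in the sublines, 748 to 1013 in the strong lines, and 1403, 7058 and 4170 in the weak lines. It passed against the weak lines (-4.56, adjusted p = 0.00443) and against the strong lines (-2.47, adjusted p = 0.0468). Probes for HLA-DRB1 can also read other DRB genes, so the copy behind this level is uncertain.

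CD74, the invariant chain that guides class II molecules, stayed bright, at 1210 and 843 in the sublines, 1223 to 2507 in the strong lines, and 3285, 5744 and 5464 in the weak lines (-2.22, adjusted p = 0.0126). PSMB9, a subunit of the immunoproteasome, had levels of 349 and 242 in the sublines, 405 to 649 in the strong lines, and 783, 1530 and 1176 in the weak lines (-1.95, adjusted p = 0.0147). For both genes the sublines lay below every strong and every weak line. CIITA, the class II transactivator, picked after its values were seen, had dim levels of 63.95 and 56.69 in the sublines, 116 to 214 in the strong lines, and 157, 87.6 and 105 in the weak lines, and did not pass against the weak lines (adjusted p = 0.146). Without the modal-ploid or the hyper-ploid subline, the adjusted p was 0.0675 and 0.0802 for HLA-DRA, 0.0678 and 0.0856 for HLA-DPB1, 0.0547 and 0.0987 for CD74, and 0.0562 and 0.112 for PSMB9. HLA-DPA1 and HLA-DRB1 kept their calls under each omission.

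**Figure D2:**
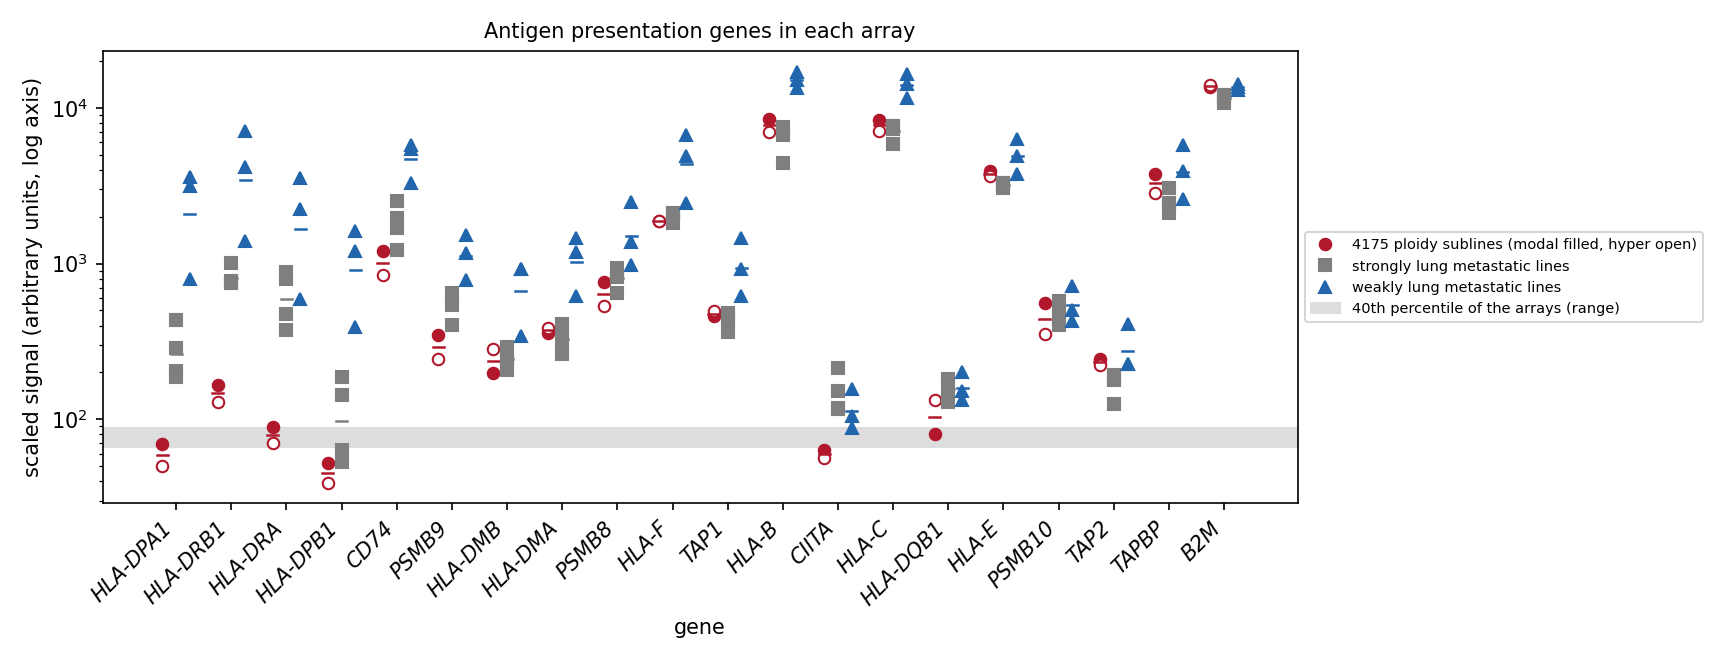
Scaled signal (arbitrary units, log axis) of the 20 tested antigen presentation genes, with the largest fall of the sublines against the weak lines at the left. Symbols are red circles for the sublines (filled modal-ploid, open hyper-ploid), grey squares for the strong lines, blue triangles for the weak lines, short bars for means of log2 levels and a grey band for the arrays' 40th percentiles; both sublines lie below all weak lines for 14 genes.

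Few interferon-stimulated or acute phase genes passed. Of 27 interferon-stimulated genes 1 fell and none rose, with a median of -0.56, while 2.24% of all genes fell and 2.5% rose. A count this small is not read as a result about the list. IFI27, an interferon-induced mitochondrial protein, had levels of 90.1 and 94.2 in the sublines, 187 to 662 in the strong lines, and 1013, 2137 and 3174 in the weak lines (-4.37, adjusted p = 0.00644; 0.0508 without the modal-ploid subline). BST2, which encodes the virus-tethering protein tetherin, had levels of 716 and 128 in the sublines, against 958, 2426 and 1248 in the weak lines, and did not pass (adjusted p = 0.0832). The count for this list was 3 lower without SCP21 and 3 lower with 1 higher without SCP6. Of 10 acute phase and complement genes, LCN2 and CFB fell and none rose, against 2.24% lower over all genes. LCN2, the iron-siderophore binder lipocalin 2, had dim levels of 56.7 and 59.1 in the sublines, 73.6 to 118 in the strong lines, and 1082, 2140 and 1638 in the weak lines. It was at least 20.9-fold lower than in the weak lines (adjusted p = 0.000395) and kept its call under each omission. CFB, complement factor B, had levels of 145 and 84.8 in the sublines, against 361, 1464 and 932 in the weak lines (-2.83, adjusted p = 0.0227). CFB lost its call without the modal-ploid subline (0.0796), the hyper-ploid subline (0.149) or SCP26 (0.0518).

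Cytokines moved in both directions. Of 18 NF-kB and inflammatory cytokine genes, CSF3 and IL1B rose and IL32 and CSF1 fell. IL32, a pro-inflammatory cytokine, had dim levels of 8.48 and 7.50 in the sublines, 8.76 to 12.2 in the strong lines, and 201, 905 and 579 in the weak lines, at least 6.34-fold lower (adjusted p = 0.00204). CSF1, the macrophage colony-stimulating factor, had levels of 685 and 291 in the sublines, 967 to 1281 in the strong lines, and 2065, 5562 and 3197 in the weak lines (-2.90, adjusted p = 0.0112). IL1B, interleukin 1 beta, had levels of 3255 and 1587 in the sublines, 348 to 1715 in the strong lines, and 167, 497 and 385 in the weak lines (2.84, adjusted p = 0.0465). For IL1B and CSF1 neither subline overlapped the weak lines, as held for every gene that passed. IL32 kept its call under each omission. CSF1 lost it without the hyper-ploid subline (0.0802), and IL1B without the modal-ploid subline (0.251), the hyper-ploid subline (0.119), SCP21 (0.0942) or SCP26 (0.0783), or with the mean of all kept probe sets (0.0521). CSF3 lost it without the modal-ploid subline, as given above.

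Further members of the 12 largest falls were RARRES2, CEMIP, LRP3 and MAPKBP1. RARRES2, which encodes the chemoattractant chemerin, had dim levels of 16.5 and 8.94 in the sublines, 15.4 to 23.2 in the strong lines, and 50.6, 701 and 604 in the weak lines, at least 3.73-fold lower (adjusted p = 0.0334). CEMIP, a protein needed for hyaluronan breakdown, had levels of 50.9 and 80.8 in the sublines, 75.8 to 95.6 in the strong lines, and 427, 1807 and 2021 in the weak lines (-4.18, adjusted p = 0.00805). LRP3, a member of the LDL receptor family, had dim levels of 9.07 and 16.4 in the sublines, against 193, 308 and 135 in the weak lines, at least 2.69-fold lower (adjusted p = 0.00228). In none of these 3 genes did the sublines pass against the strong lines (adjusted p = 0.702, 0.677 and 0.21). RARRES2 lost its call without the modal-ploid subline (0.126), the hyper-ploid subline (0.181) or SCP26 (0.0762), CEMIP without the modal-ploid subline (0.0676), and LRP3 kept its call under each omission.

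EGF receptor family genes gave 1 rise, EREG, and 1 fall, EGFR, among 6 tested. Over all genes 2.5% rose and 2.24% fell, and counts of 1 in so short a list are not read as a result about the family. EGFR, which encodes the receptor of EGF itself, had levels of 816 and 547 in the sublines, 1412 to 2030 in the strong lines, and 2076, 2327 and 1404 in the weak lines. Both sublines lay below all 7 other lines, and the difference passed against the weak lines (-1.50, adjusted p = 0.0235) and the strong lines (-1.37, adjusted p = 0.0405). The call against the weak lines was lost without the modal-ploid subline (0.0667), the hyper-ploid subline (0.159) or SCP21 (0.0555). With the mean of all kept probe sets the EGFR difference from the weak lines was -0.64 and did not pass (adjusted p = 0.366). Among 14 VEGF and vascular genes PDGFA rose and THBD fell, likewise too few to read as a result about the list. PDGFA, a platelet-derived growth factor chain, had levels of 482 and 316 in the sublines, against 97.6, 158 and 139 in the weak lines (1.60, adjusted p = 0.0233). It lost its call without the modal-ploid subline (0.155), the hyper-ploid subline (0.0609) or SCP21 (0.0505).

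Genes of TGF-beta signalling rose in part. Of 22 TGF-beta response and ID genes, SMAD6, PMEPA1, TGFBR1 and CCN2 rose and none fell, with a median of 0.97. TGFBR1, the type I receptor, had levels of 507 and 551 in the sublines, 171 to 185 in the strong lines, and 105, 224 and 132 in the weak lines. The receptor gene passed against the weak lines (1.86, adjusted p = 0.0122) and the strong lines (1.56, adjusted p = 0.0294). PMEPA1, a target and feedback inhibitor of the pathway, had levels of 722 and 1419 in the sublines, 256 to 475 in the strong lines, and 151, 69.2 and 163 in the weak lines (3.08, adjusted p = 0.00926). CCN2, the connective tissue growth factor, had levels of 3219 and 4135 in the sublines, against 1567, 1600 and 878 in the weak lines (1.49, adjusted p = 0.0236). SMAD6, an inhibitory SMAD, had levels of 101 and 50.0 in the sublines, against 4.35, 9.94 and 11.7 in the weak lines (adjusted p = 0.0137), and only the modal-ploid level was above the limit. Without the modal-ploid subline the adjusted p was 0.0733 for TGFBR1, 0.0928 for CCN2 and 0.109 for SMAD6. Without the hyper-ploid subline it was 0.0856 for TGFBR1, 0.157 for CCN2 and 0.0767 for PMEPA1. The list's count was 1 higher without either subline and 6 higher without SCP6.

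Some bone metastasis genes, described in bone-seeking derivatives of the same parental line, were also high in these lung-line sublines. Of 8 tested, 5 rose and none fell, with a median of 2.50 (1.33 with 2 genes at their bound): MMP1, IL11, SRGN, ADAMTS1 and CCN2. MMP1, ADAMTS1 and CCN2 are also counted in other lists above. CXCR4, FST and FGF5 did not pass. Of the 8 differences 2 were negative, and for 1 gene both sublines lay below all 3 weak lines. IL11, a cytokine that promotes osteoclast formation, had levels of 3656 and 2781 in the sublines, 178 to 1420 in the strong lines, and 182, 112 and 35.6 in the weak lines. It was 35.4-fold higher than in the weak lines, of which 2 were above the limit (adjusted p = 0.0150). Against the strong lines the IL11 difference was 2.97 and did not pass (adjusted p = 0.0874). SRGN, which encodes the secretory granule proteoglycan serglycin, had levels of 8984 and 7026 in the sublines, 1063 to 1996 in the strong lines, and 1093, 586 and 503 in the weak lines. SRGN passed against the weak lines (3.54, adjusted p = 0.00294) and the strong lines (2.56, adjusted p = 0.0133). Its call against the weak lines stood under each omission, while IL11 lost its own without the modal-ploid (0.102) or the hyper-ploid subline (0.0844). The list's count was 1 higher without the modal-ploid and 2 higher without the hyper-ploid subline.

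Some genes of cell division rose in the sublines. Of 30 mitosis genes 5 rose and none fell, and 28 had a positive difference, with a median of 0.63. INCENP, a scaffold of the chromosomal passenger complex, had levels of 566 and 498 in the sublines, 145 to 183 in the strong lines, and 64.5, 214 and 141 in the weak lines (2.09, adjusted p = 0.0283). CENPA, the histone variant of centromeres, had levels of 1103 and 943 in the sublines, 378 to 492 in the strong lines, and 401, 525 and 437 in the weak lines. CENPA passed against the weak lines (1.18, adjusted p = 0.0208) and the strong lines (1.18, adjusted p = 0.0252). CDK1, the kinase that drives entry into mitosis, had levels of 5135 and 4324 in the sublines, against 2121, 2439 and 2441 in the weak lines (1.02, adjusted p = 0.0406). PRC1, a spindle midzone protein, and CENPE, a kinetochore motor, were the other 2. The hyper-ploid level was the lower of the pair for each of the 5 except PRC1. The list's count was 0 without the modal-ploid subline, 1 without the hyper-ploid subline, 2 without SCP21, 2 without SCP26 and 10 without SCP6. Without the modal-ploid subline the adjusted p was 0.155 for INCENP, 0.136 for CENPA, 0.221 for CDK1, 0.12 for PRC1 and 0.17 for CENPE. With the mean of all kept probe sets the CDK1 difference was 0.56 and did not pass (adjusted p = 0.172).

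Of 27 DNA replication genes none passed, with a median of 0.42, and 3 rose without SCP6. MCM5, a subunit of the replicative helicase, had levels of 1869 and 2393 in the sublines, against 1290, 1232 and 601 in the weak lines (1.10, adjusted p = 0.104). Among 14 p53 targets 1 fell, while 2.24% of all genes fell, so this count is not read as a result about the list. It was PLK2, a polo-like kinase, with levels of 1146 and 683 in the sublines, against 1922, 2106 and 2672 in the weak lines (-1.32, adjusted p = 0.0291). BAX, a mitochondrial death effector, had levels of 1418 and 1351 in the sublines, against 430, 1215 and 184 in the weak lines, and did not pass (adjusted p = 0.186). PLK2 lost its call without the hyper-ploid subline (0.181) or SCP26 (0.0611), and without SCP6 the p53 list gave 3 higher and 1 lower.

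Of 18 cholesterol and fatty acid synthesis genes 2 rose and none fell, with a median of 0.92. FASN, the fatty acid synthase, had levels of 2564 and 2233 in the sublines, 578 to 996 in the strong lines, and 857, 948 and 996 in the weak lines. FADS2, a fatty acid desaturase, had levels of 2261 and 2240 in the sublines, 528 to 889 in the strong lines, and 254, 538 and 647 in the weak lines. Both sublines exceeded all 7 lines for both genes. FASN passed against the weak lines (1.36, adjusted p = 0.0227) and the strong lines (1.65, adjusted p = 0.0152), and FADS2 likewise (2.34, adjusted p = 0.0146, and 1.71, adjusted p = 0.0492). SCD, a stearoyl-CoA desaturase, had levels of 7064 and 6961 in the sublines, 666 to 2914 in the strong lines, and 774, 4073 and 3792 in the weak lines, and did not pass (1.62, adjusted p = 0.248). Without SCP6, 8 genes of this list rose, and without either subline none did. The adjusted p without the modal-ploid or the hyper-ploid subline was 0.14 and 0.0955 for FASN and 0.0928 and 0.0891 for FADS2, and FASN also lost its call without SCP21 (0.0525).

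Of 27 hypoxia and glycolysis genes 2 rose and 1 fell, with a median of 0.42. Over all genes 2.5% rose and 2.24% fell, and these counts are not read as a result about the list. ALDOC, an aldolase of glycolysis, had levels of 537 and 832 in the sublines, 190 to 304 in the strong lines, and 103, 128 and 99.95 in the weak lines. It passed against the weak lines under each omission (2.61, adjusted p = 0.00309) and against the strong lines (1.36, adjusted p = 0.0378). ADM, which encodes the vasoactive peptide adrenomedullin, had levels of 6076 and 3702 in the sublines, against 896, 780 and 530 in the weak lines (2.72, adjusted p = 0.0189). ADM lost its call without the modal-ploid (0.132) or the hyper-ploid subline (0.0663). EGLN3, a prolyl hydroxylase that marks HIF for breakdown, had dim levels of 26.2 and 41.1 in the sublines, against 76.3, 100.5 and 107 in the weak lines (adjusted p = 0.0264), and lost its call without the modal-ploid subline (0.177), the hyper-ploid subline (0.061) or SCP26 (0.06), or with a variance trend (0.0701). Without SCP6 the list gave 9 higher and 1 lower. Of 17 guidance receptors and ligands, ROBO1 alone passed in this fit, against 4.74% of all genes, and 2 rose and 1 fell without SCP6.

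**Figure D3:**
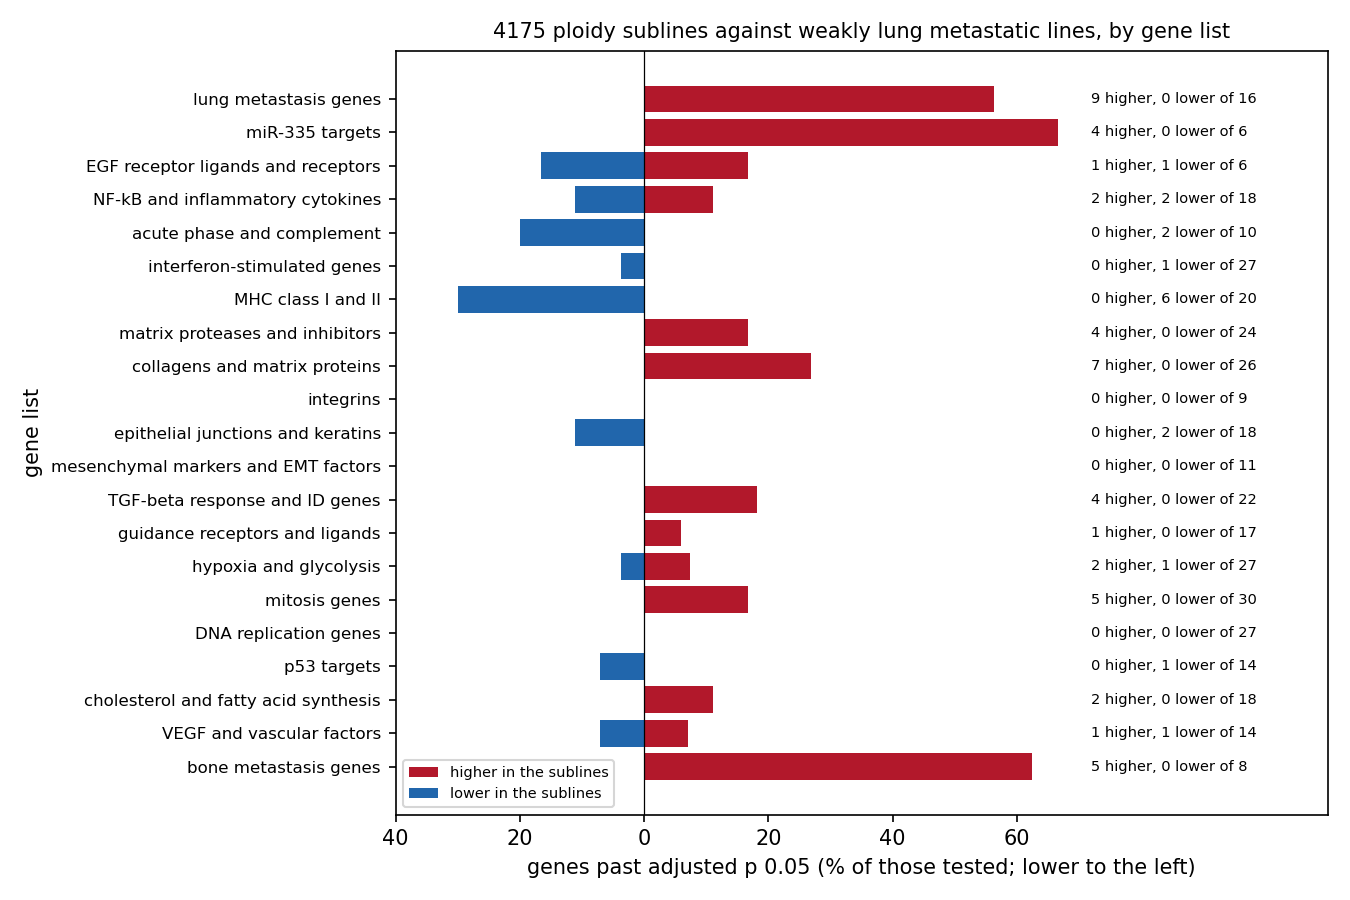
Share of tested genes in each of 21 gene lists that passed an adjusted p of 0.05 in the 4175 sublines against the weak lung lines, with higher genes in red to the right and lower genes in blue to the left (% of genes tested, n beside each bar). The lung metastasis list has 9 of 16 higher, the bone metastasis list 5 of 8 higher and the MHC list 6 of 20 lower; over all genes 2.5% were higher and 2.24% lower.

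The strong lines themselves differed from the weak lines in 509 genes (5.68%), 192 higher (2.14%) and 317 lower (3.54%). This comparison shares the 3 weak arrays with the one above, so values are given side by side and no overlap is tested. Its 8 largest rises were MMP1, SPARC, ROBO1, IL13RA2, SOX4, SPANXB1, AGR2 and CSF3, and its 8 largest falls IL32, WT1, PARD6B, LCN2, EBI3, RARRES2, PDZK1IP1 and CEMIP. Since the weak lines were dim for the first of these, rises are given as bounds. MMP1 was at least 32.3-fold above the weak lines in the sublines and at least 38.0-fold in the strong lines. Its strong lines ran from 1839 to 4843, with the modal-ploid subline above all of them (7698) and the hyper-ploid subline below (839). The subline bound for MMP1 thus averages levels on either side of the strong range. For SPARC the bounds were 41.5-fold in the sublines and 37.9-fold in the strong lines, and for SOX4 9.34-fold and 6.84-fold. IL32 was dim in both groups and at least 6.34-fold lower in the sublines and 5.61-fold lower in the strong lines than in the weak lines. PDZK1IP1, a small membrane protein of epithelia, had levels of 149.5 and 101 in the sublines, 48.8 to 94.7 in the strong lines, and 870, 947 and 978 in the weak lines (-2.92, adjusted p = 0.00313, and kept under each omission).

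For other genes of this set the sublines lay away from the strong lines. PARD6B, a polarity protein that binds atypical protein kinase C, had levels of 225 and 176 in the sublines, 6.16 to 10.1 in the strong lines, and 91.5, 362.5 and 124 in the weak lines. The sublines overlapped the weak lines (0.31, adjusted p = 0.759) and passed against the strong lines (adjusted p = 0.00726), all of which were dim, the original 4175 array included at 6.45. AGR2, a secretory-pathway disulphide isomerase, had dim levels of 48.8 and 4.18 in the sublines, 33.2 to 302 in the strong lines, and dim levels of 12.7, 2.35 and 8.58 in the weak lines. SPANXB1, a cancer-testis gene with near-identical family copies, had levels of 353 and 196 in the sublines, 610.5 to 5134 in the strong lines, and 33.7, 22.8 and 317 in the weak lines. Neither AGR2 (1.17, adjusted p = 0.602) nor SPANXB1 (2.08, adjusted p = 0.331) passed in the sublines. EBI3, a subunit of interleukins 27 and 35, had levels of 81.2 (modal-ploid) and 10.4 (hyper-ploid) in the sublines, 4.51 to 6.54 in the strong lines, and 137, 126 and 40.5 in the weak lines (-1.61, adjusted p = 0.262). WT1, a zinc finger transcription factor, had dim levels of 23.5 and 20.6 in the sublines and of 4.998 to 7.61 in the strong lines, and levels of 126, 96.9 and 217 in the weak lines. WT1 was at least 1.86-fold lower in the sublines than in the weak lines (adjusted p = 0.00550, kept under each omission but not with a variance trend, 0.212), and no fold is given between sublines and strong lines since both were dim.

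Both sublines lay within the range of the strong lines for 10 of the 224 higher and 12 of the 201 lower genes. For the rest at least 1 subline lay outside that range. The matching share over all genes was not counted. The 2 subline arrays also differed as a pair from all 7 lines in signal scale and spike-ins, as given above. Array handling and subline status cannot be told apart for these differences. Set directly against the strong lines, they differed in 226 genes (2.52%), 135 higher (1.51%) and 91 lower (1.02%). Without SCP6, whose spread enters the shared error, these counts were 536 and 346, without the modal-ploid subline 10 and 24, and without the hyper-ploid subline 5 and 24. TNFRSF11B and FGF13 were dim in all strong and weak lines. Both passed the signal filter only through the 2 sublines, so their calls are partly built in. TNFRSF11B encodes the decoy receptor osteoprotegerin. Its levels were 292 and 765 in the sublines, 2.74 to 18.1 in the strong lines, and 2.87, 3.74 and 11.2 in the weak lines. It was at least 6.01-fold higher than in the weak lines (adjusted p = 0.00503, kept under each omission) and passed against the strong lines (adjusted p = 0.0121). FGF13, an intracellular FGF family member that modulates sodium channels, had levels of 812 and 1052 in the sublines, 7.18 to 79.6 in the strong lines, and 49.7, 46.5 and 30.6 in the weak lines. It was at least 11.7-fold above the weak lines (adjusted p = 0.0189; 0.0966 and 0.115 without the modal-ploid and the hyper-ploid subline) and passed against the strong lines (adjusted p = 0.0159). In the other direction, MAPKBP1, a JNK-binding scaffold, had dim levels of 25.9 and 7.07 in the sublines, 138 to 214 in the strong lines, and 170, 306 and 140 in the weak lines, at least 2.60-fold lower than in the weak lines (adjusted p = 0.00765, kept under each omission).

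**Figure D4:**
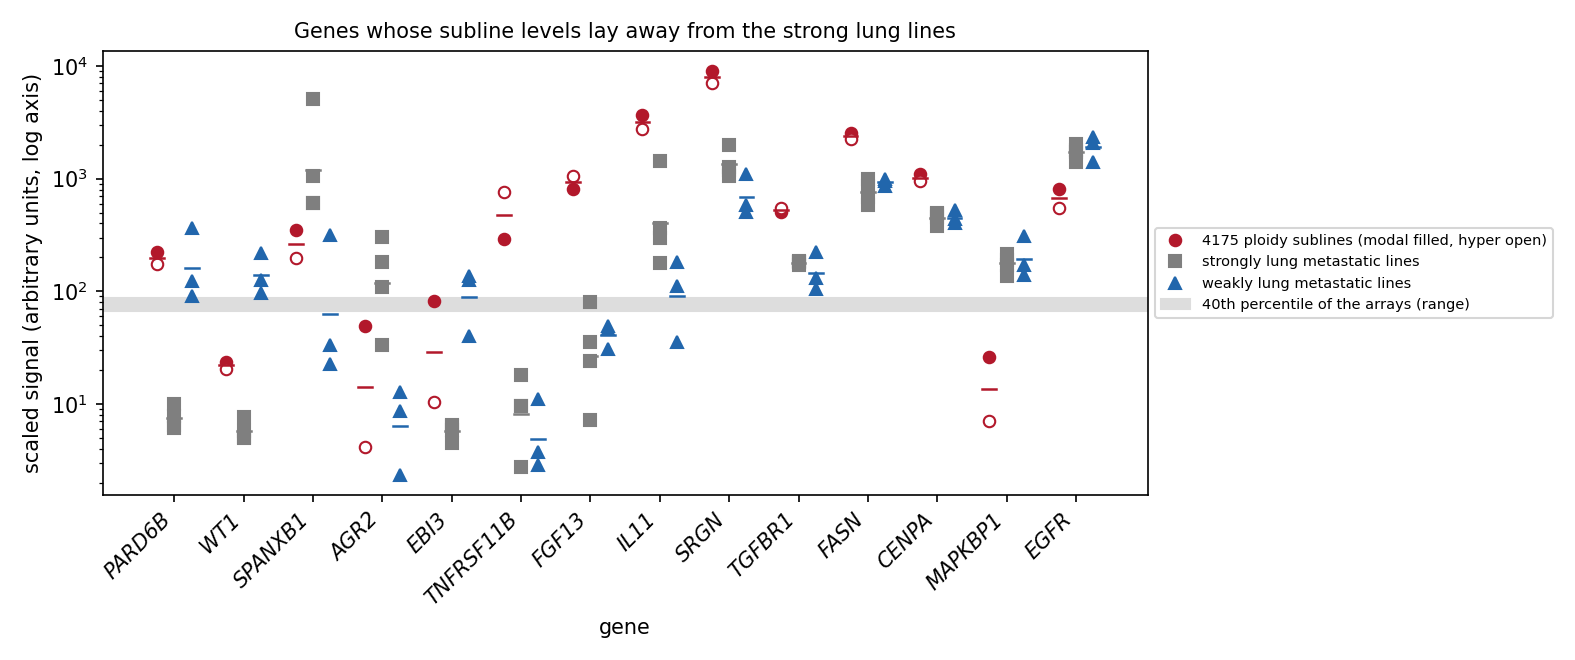
Scaled signal (arbitrary units, log axis) of 14 genes, picked after their values were seen, for which the sublines lay away from most or all strong lines. Symbols are red circles for the sublines (filled modal-ploid, open hyper-ploid), grey squares for the strong lines, blue triangles for the weak lines, short bars for means of log2 levels and a grey band for the arrays' 40th percentiles; PARD6B stands at 225 and 176 in the sublines and at 6.16 to 10.1 in the strong lines.

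With 1 array at each ploidy the difference between the sublines has no replicate check and is given as values. Among genes called against the weak lines, the 6 with the largest excess in the hyper-ploid subline were PIWIL2, SLC46A3, KCNK2, CISH, TNFRSF11B and PIEZO2. KCNK2, a two-pore potassium channel, had levels of 364 (hyper-ploid) and 121 (modal-ploid) in the sublines, against 30.8, 6.84 and 14.9 in the weak lines. The gain was at least 2.67-fold (limma adjusted p = 0.0283). KCNK2 was dim in all strong and weak lines and passed the signal filter only through the sublines. PIWIL2 (46.3 and 12.8), SLC46A3 (39.0 and 11.9) and PIEZO2 (33.8 and 13.7) were dim in both the hyper-ploid and modal-ploid arrays, so their order between the sublines rests on levels under the limit. PIEZO2 was dim in the weak lines as well. KCNK2 and TNFRSF11B were the 2 of these 6 that were higher than in the weak lines, and the other 4 were lower. Those 4 lost their calls without the modal-ploid subline (adjusted p = 0.112 for PIWIL2, 0.119 for SLC46A3, 0.198 for CISH and 0.25 for PIEZO2). The 6 with the largest excess in the modal-ploid subline were MMP1, CLDN4, MAPKBP1, THBD, KRT19 and IL18, of which MAPKBP1 was dim in both sublines and CLDN4 in the hyper-ploid one. THBD, which encodes the anticoagulant receptor thrombomodulin, had levels of 113 (hyper-ploid) and 398 (modal-ploid) in the sublines, 877 to 1537 in the strong lines, and 769 to 2066 in the weak lines (-2.46 against the weak lines, adjusted p = 0.0422). IL18, a cytokine of the interleukin 1 family, had levels of 193 (hyper-ploid) and 564 (modal-ploid) in the sublines, against 68.5, 48.5 and 121 in the weak lines (2.16, adjusted p = 0.0428). For MMP1 the hyper-ploid level was 3.20 lower on the log2 scale, yet still above every weak line. Of these, KCNK2 lost its call without the modal-ploid subline (0.07), the hyper-ploid subline (0.179) or SCP26 (0.0611) or with a variance trend (0.0737), THBD without the hyper-ploid subline (0.226), SCP21 (0.0505) or SCP26 (0.086) or with the mean of all kept probe sets (0.0948), and IL18 without the modal-ploid subline (0.246) or SCP21 (0.0874).

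Some markers of other cell types were measured in these cultures, and several defining ones were not. Of 14 leukocyte markers 9 lay above the limit in at least 1 subline, against 1 of 8 endothelial markers, 4 of 9 fibroblast and smooth muscle markers and 3 of 7 lung epithelium markers. CDH5, CLDN5, EMCN, TEK, TIE1 and VWF of the endothelial list, and PTPRC, CORO1A and TYROBP of the leukocyte list, were dim on all 9 arrays. Summed leukocyte marker levels over 14 genes were 3598 to 5347 in the sublines, 6398 to 6930 in the strong lines and 1865 to 2538 in the weak lines. LAPTM5, a lysosomal membrane protein of blood cells, made up most of that sum in the sublines and strong lines, though not in SCP21. Its levels were 4083 and 2374 in the sublines, against 865, 1389 and 1269 in the weak lines (1.44, limma adjusted p = 0.0263). LAPTM5 lost its call without the modal-ploid subline (0.17), without SCP21 (0.0547) or with no filter (0.0507). HCLS1, a signalling protein of blood cells, picked like LAPTM5 after its values were seen, had levels of 355 and 387 in the sublines, against 152, 51.3 and 151 in the weak lines, and did not pass (adjusted p = 0.0504). Of 10 leukocyte markers tested, 6 had a positive difference from the weak lines, with a median of 0.25. CD3D (-0.60), CD163 (-0.78), CD2 (-0.17) and ITGB2 (-0.17) had negative differences and did not pass. The part of these markers in the other results was not tested. Endothelial sums were 154 to 179 in the sublines and 192 to 369 in the weak lines, fibroblast sums 497 to 585 and 472 to 746, and lung epithelium sums 621 to 640 and 283 to 615.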

How the data were processed

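Total RNA of each line had been labelled as cRNA and hybridised to an Affymetrix array, per the labels' protocols. The authors deposited 1 linear ratio per probe set and array for 22283 probe sets, and the sources used here do not give the software or the divisor. In the 9 lung-set arrays, ratios were whole multiples of 0.1 signal units once 1 divisor per probe set was removed. This recovered signals for 22283 probe sets (100.0%), within 0.01 steps plus the rounding of the deposited ratio, an allowance kept under 0.09 steps. The largest distance was 0.0365 steps, and 99.84% of values lay within 0.01 steps. The same rule passed 0.1% of 2000 shuffled probe sets. The array number limits the precision.

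Log2 deposited ratios were centred on each array's median, and limma 3.58.1 under R 4.3.3 (lmFit, eBayes) was fitted over the 9 arrays with 3 group means (6 residual and 3.09 prior degrees of freedom). P-values were Benjamini-Hochberg adjusted over 8963 genes. A probe set was kept when 2 or more of the 9 arrays held it over their own 40th percentile. Of 22283 probe sets, 19071 had 1 symbol, 1043 several and 2169 none, and only the first were named. The probe set of highest mean signal stood for a gene. "At least" folds set the brighter group's mean over the 40th percentile levels of the dim group's arrays. The fit was tested on simulated data of the same size.

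Named genes were the 12 largest rises and 12 largest falls past the threshold without overlap, up to 4 members of each of 21 lists plus any that passed, the 8 largest rises and falls of strong against weak lines, and the 6 called genes furthest apart between sublines in each direction. LAPTM5, HCLS1, CIITA and the 14 plotted genes were chosen after their values were seen. Members and lists were chosen with earlier results of these data known. Alternatives were log2(signal + 16), uncentred ratios, quantile normalization, other filters and arrays, probe-set means, a variance trend and omission of each array.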

Additional observations from a re-analysis of the deposited data

Results flagged for a closer look

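Among 113 named genes, 8 had 1 strong lung line far from the other 3, by the ratio of its gap to the whole range (Dixon's test at the 95% level), and chance flags about 1 in 20 groups. None of these lines is a 4175 subline, and the values bear on the strong-line ranges given above. The ratio was 0.914 for HLA-DRB1 in 4180 (1013, against 748.5 to 768.2 in the others), 0.878 for TNC in the original 4175 (624.3, against 313.5 to 340.9) and 0.940 for PTPRN2 in 4142 (13.56, against 1014 to 1337). It was 0.922 for SERPINA1 in 4142 (166.8, against 574 to 637.3), 0.840 for SERPINE2 in the original 4175 (2505, against 1910 to 1995) and 0.938 for PPL in 4142 (169.3, against 300.5 to 312). It was 0.866 for CCN2 in 4180 (3136, against 3668 to 3758) and 0.858 for SEMA4D in 4173 (235.6, against 165.6 to 174.1). TNC, at 482 and 924 in the sublines, lay above the other 3 strong lines in both, like the original 4175 array.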

How the results depend on the processing

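The 425 calls of the sublines against the weak lines became 273 with no filter, 34 with only the 5 arrays, 999 with 18 arrays, and 87 to 1173 when 1 array was left out, with the highest count without SCP6. The 509 calls of strong against weak lines became 259 with no filter and 1089 with 18 arrays, and 395 to 572 with 1 array left out. The 226 calls of sublines against strong lines became 126 with no filter, 365 with the 60th percentile filter, 790 with 18 arrays, 352 with a variance trend, and 29 to 882 with 1 array left out. Under quantile normalization 48.8% of strong-against-weak calls were higher, against 37.7% in the main fit, and 42.4% of subline-against-strong calls, against 59.7%. No called difference of a named gene changed sign in the alternatives run. Of 71 named genes past the threshold, 19 kept their call with each of the 5 arrays left out in turn and 48 with each weak line left out. Leaving out a subline leaves 1, which is then assumed to vary like the other groups. With only the 5 arrays, 17 of the 71 passed, and the lists held 3 lung metastasis, 2 collagen and matrix, 1 bone metastasis, 0 mitosis and 0 MHC calls. With no filter 18 of the 71 missed the threshold (adjusted p = 0.051 to 0.0822), namely RARRES2, PIWIL2, KCNK2, CISH, PIEZO2, THBD, KRT19, IL18, MMP2, IL1B, ADAMTS1, COL7A1, COL6A1, EGLN3, INCENP, PRC1, CDK1 and PLK2. No paired analysis was possible because each array is a different line or subline and the labels give no pairs between the groups. Dim levels limit folds to lower bounds.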
